A study of Mus musculus with 30 samples.

Results

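Microglia shaken off neonatal mixed glial cultures after 21 days (Protocol 1C) were compared with microglia shaken off after 10 days (Protocol 1A), both untreated (Control). The libraries were chosen by their labels alone, 3 Control libraries of 1C and 3 of 1A, which is 6 of the 30 libraries of the series. The study set 5 isolation protocols for mouse microglia side by side, each as Control and with HMGB1, a nuclear protein that acts as a danger signal once it leaves the cell, added for 4 h. All RNA came from C57/B6 mice according to the labels, and the neonates were 0 to 3 days old. Both 1C and 1A cultures held GM-CSF, a growth factor of myeloid cells, at 0.5 ng/ml, so the stated difference between the groups was the days of culture before the microglia were dislodged. The time spent with GM-CSF differed along with the days. The series holds no 21-day culture without GM-CSF, so days of culture and length of GM-CSF exposure cannot be told apart. The labels and the protocol's own entry in the methods give 21 days for 1C, although the general harvest step there names day 10 for all the neonatal protocols. Each suspension was pooled from several pups, replicates came from separate litters, and the detached cells were replated in serum-free medium, according to the study's methods. Protocol 1B, with 10 days and no GM-CSF, is given beside 1C and 1A where it helps to place a level, and the 1C and 1A libraries with HMGB1 serve as libraries that the Control comparison did not use.

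Microglia are the resident macrophages of the brain. In mixed glial cultures they proliferate on a layer of astrocytes, from which they can be shaken off because they adhere weakly. Cultured microglia are known to lose much of the gene expression that marks them in the intact brain, among it the transmembrane protein Tmem119, and to resemble growing, lipid-handling macrophages.

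Total counts per library were 16111171, 20932981 and 21206418 in 1C and 21497681, 18431781 and 18038316 in 1A. Levels are CPM, the count of a gene scaled to the TMM-adjusted library size. They were not divided by gene length and so compare one gene between libraries. The words rose, fell and changed are kept for genes where edgeR's quasi-likelihood F test gave a Benjamini-Hochberg adjusted p below 0.05 over all 17033 genes tested, and log2 fold changes are 1C minus 1A with their standard error (SE). Replicates of one group lay closer to each other than to the other group. The root mean square distance between log2 CPM profiles was 0.562 to 0.658 among 1C libraries and 0.491 to 0.596 among 1A libraries, against 0.849 to 0.976 between the groups. No library stood apart, and no pair of replicates agreed within sampling noise.

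The labelled cell type held for both ages of culture. Csf1r, the receptor for M-CSF on which microglia depend, was at 1411, 1242 and 1405 CPM in 1C and 1111, 1216 and 1281 CPM in 1A, and it did not pass the test (adjusted p = 0.198). Summed over the 15 microglia and macrophage markers, the level was 7444 to 9456 CPM in 1C and 4823 to 5412 CPM in 1A, and 8 of the 15 rose while 1, Ptprc, fell. Ptprc encodes CD45 and Itgam encodes CD11b, the pair of surface proteins by which the study gated its cells. Ptprc was at 526, 430.5 and 419.6 CPM in 1C, against 548, 566 and 615 CPM in 1A (log2 fold change −0.33 ± 0.09 SE, adjusted p = 0.0137). Itgam was at 180.5, 162 and 157 CPM in 1C, against 142, 135 and 118 CPM in 1A (log2 fold change 0.34 ± 0.08 SE, adjusted p = 0.00453). Neither gene's groups overlapped, and they moved in opposite directions. Tmem119 was low at both ages, 1.91, 1.0 and 1.91 CPM in 1C and 1.6, 1.25 and 1.23 CPM in 1A, with overlapping groups (adjusted p = 0.726).

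Markers of the other cells of a mixed glial culture were low, and many that were close to 0 in 1A were higher in 1C. Among astrocyte markers 7 of 12 rose and 2 fell, among markers of oligodendrocytes and their precursors 11 of 14 rose and 1 fell, among neuronal markers 4 of 7 rose, among those of fibroblasts and mural cells 8 of 15 rose and 1 fell, and among those of ependyma and choroid plexus 2 of 6 rose. Gfap, the intermediate filament of astrocytes, was at 2.57, 8.81 and 1.73 CPM in 1C and had no count in the 1A libraries, which puts it at least 94.3-fold higher against a floor of 3 counts over the 1A group. On the same floor the astrocyte water channel Aqp4 was at least 20.5-fold higher, and the myelin genes Mog, Mobp and Cldn11 at least 24.3-fold, 34.4-fold and 58.7-fold higher. In 1B, also at 10 days, Gfap, Aqp4 and Cldn11 averaged 7.66, 1.74 and 4.65 CPM, above their 1C means of 4.37, 0.948 and 2.72 CPM. Mog and Mobp averaged 0.103 and 0.476 CPM in 1B, below their 1C means of 1.12 and 1.59 CPM. Relative to 1A, 9 of 12 astrocyte markers were higher in 1B and 2 lower. Olig1, a transcription factor of the oligodendrocyte lineage, was at 7.71, 5.19 and 7.4 CPM in 1C, against 0, 0.0959 and 0.0513 CPM in 1A (3 counts over the 3 libraries), and it rose at adjusted p = 4.71e-08. Slc1a3, the astrocyte glutamate transporter, was at 3.05, 5.45 and 3.45 CPM in 1C, against 0, 0.0479 and 0.0513 CPM in 1A (2 counts over the 3 libraries), and rose at adjusted p = 9.26e-07. Neither gene's groups overlapped. Atp1b2, a sodium pump subunit of astrocytes, rose by 3.98 and Pdgfra, the receptor of oligodendrocyte precursors, by 3.02 on the log2 scale. Aldoc and Aldh1l1, metabolic enzymes of the astrocyte list, went the other way and fell by 1.69 and 0.52. Cspg4 was the fall on both the oligodendrocyte list and the list of fibroblasts and mural cells. It had 137, 165 and 139 counts in 1C and 544, 585 and 519 in 1A. Gfap, Aqp4, Mog, Mobp and Cldn11 were named after their values were seen.

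The sums over these lists were led by a few abundant members, so they do not measure the share of a cell type. In the list of fibroblasts and mural cells, Fn1 had 10962, 13353 and 11612 counts in 1C and 10421, 6877 and 7438 in 1A. Mbp had the most counts in the oligodendrocyte list, and Aldoc and Aldh1l1 in the astrocyte list. The sums were 632 to 807 CPM in 1C and 365 to 458 CPM in 1A for fibroblasts and mural cells. They were 207 to 295 CPM and 162 to 180 CPM for oligodendrocytes and precursors, and 55.7 to 73.9 CPM and 91.1 to 99.0 CPM for astrocytes. They were 5.5 to 7.67 CPM in 1C and 1.05 to 1.64 CPM in 1A for neurons, and 6.76 to 37.0 CPM and 0.573 to 1.58 CPM for ependyma and choroid plexus. Endothelial markers summed to 120 to 150 CPM in 1C and 167 to 196 CPM in 1A. Of 12 tested 1 was higher (8.33%) and 2 were lower (16.7%), against 13.1% and 7.91% of all genes tested. Cldn5, Emcn and Tie1 had no count in the 6 libraries, but other members were detected. Cdh5 had 12, 24 and 24 counts in 1C and 0, 7 and 14 in 1A, and Pecam1 had 13, 17 and 4 and 21, 8 and 3. Neutrophil markers summed to 2.91 to 6.15 CPM in 1C and 5.28 to 6.09 CPM in 1A, with Elane and Retnlg at 0 counts, and the T cell genes Cd3e, Cd3d and Cd3g were at 0 counts as well. Monocyte and border macrophage markers summed to 1166 to 1317 CPM in 1C and 1130 to 1178 CPM in 1A, with 5 of 13 higher and 4 lower. In bulk RNA, fewer cells of a type and less RNA per cell cannot be told apart. The part that cells of these other types had in the results below was not tested, and their markers are named again where a result moves with them.

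**Figure D1:**
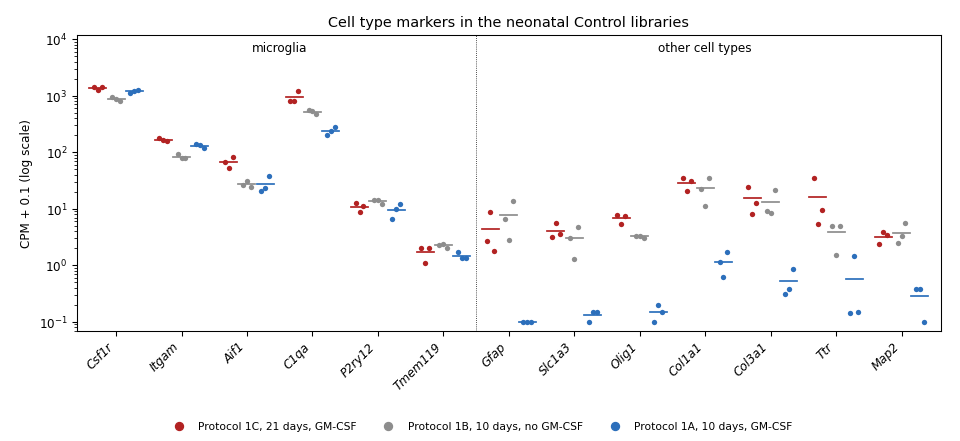
CPM plus 0.1 on a log axis for 6 microglial markers and 7 markers of other cell types, 1 dot per library and a bar at the group mean, for Protocol 1C (left), 1B (middle) and 1A (right). Csf1r and Itgam lie close together in the 3 groups, while Gfap, Slc1a3, Olig1, Col1a1 and Map2 are lowest in 1A and higher in both 1C and 1B.

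Of the 17033 genes tested, 2230 were higher in 1C (13.1%) and 1348 lower (7.91%), which makes 3578 in all (21%). The 3 libraries of 1C lay entirely above or below the 3 of 1A in 5914 genes (34.7%), above in 20.3% and below in 14.4%. An exact permutation test over 3 against 3 libraries cannot go below p = 0.1, so single genes rest on the fit across all genes. The median log2 fold change over all tested genes was 0.04. Changes of at least 4-fold were mostly rises of weakly expressed genes: 685 genes rose and 111 fell that far, and 650 of the 685 had a 1C mean below 10 CPM, 376 below 1 CPM. Of the 685, 178 had no count in 1A. Of the 111 that fell, 87 had a 1A mean below 10 CPM. In a fit of only the 6 libraries compared, 1496 of 14133 genes were higher and 1325 lower, a smaller excess of rises.

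Among protein-coding genes of at least 10 CPM whose groups did not overlap, the largest rises were dominated by matrix and glial genes. Ncan, the brain proteoglycan neurocan, was at 21.7, 21.9 and 21.6 CPM in 1C, against 0.327, 0.240 and 0 CPM in 1A (log2 fold change 6.73 ± 0.52 SE, adjusted p = 4.36e-07). Ptprz1, a receptor phosphatase of glial precursors, was at 12.6, 10.7 and 9.67 CPM in 1C, against 0.0819, 0.192 and 0.410 CPM in 1A (log2 fold change 5.61 ± 0.42 SE, adjusted p = 2.02e-08). Both were even across the 1C libraries. The choroid plexus gene Ttr, which carries thyroid hormone, was at 34.3, 5.19 and 9.58 CPM in 1C, against 0.0409, 1.34 and 0.0513 CPM in 1A (log2 fold change 5.08 ± 1.07 SE, adjusted p = 0.00647). It was uneven, highest in 1C replicate 1, although every 1C library was above every 1A library. The fibrillar collagens Col1a2, Col3a1 and Col1a1 rose by 5.46, 5.19 and 4.75 on the log2 scale (adjusted p = 0.000375, 0.000374 and 0.000127), and Mmp3, the matrix protease stromelysin, by 6.50 (adjusted p = 0.000126). Ttr and Col1a1 are themselves on the marker lists of choroid plexus and fibroblasts, whose counts and sums are given above and whose part in these rises was not tested.

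A pair of membrane proteins was also among the 10 largest rises. Timd4, the phosphatidylserine receptor TIM-4 by which macrophages bind dying cells, was at 18.3, 22.8 and 17.8 CPM in 1C, against 0.614, 1.01 and 1.33 CPM in 1A (log2 fold change 4.34 ± 0.34 SE, adjusted p = 4.38e-08). Vsig8, an immunoglobulin-domain membrane protein, was at 36.6, 46.4 and 50.9 CPM in 1C, against 3.23, 1.2 and 2.26 CPM in 1A (log2 fold change 4.30 ± 0.28 SE, adjusted p = 2.36e-08). Both were far apart between the ages and low without GM-CSF, at 0.316, 0.186 and 0 CPM for Timd4 and 0.842, 1.07 and 0.404 CPM for Vsig8 in 1B. Vsig8 shares its place in the genome with a gene on the other strand, and the counting is not stated to use strand, so reads of the pair cannot be told apart.

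The largest falls were led by Mcoln3, a cation channel of endosomes and lysosomes (TRPML3), at 1.49, 1.96 and 1.59 CPM in 1C, against 24, 22.4 and 20.1 CPM in 1A (log2 fold change −3.71 ± 0.20 SE, adjusted p = 1.33e-10). Ccr2, the chemokine receptor by which monocytes leave the bone marrow, was at 4.6, 3.62 and 3.77 CPM in 1C, against 29.6, 33.1 and 46 CPM in 1A (log2 fold change −3.19 ± 0.19 SE, adjusted p = 7.68e-10). Vcan, the proteoglycan versican, was at 6.93, 4.23 and 4.0 CPM in 1C, against 50.1, 56.2 and 31.5 CPM in 1A (log2 fold change −3.21 ± 0.35 SE, adjusted p = 4.56e-05), and it also overlaps a gene on the other strand. None of these groups overlapped. The other 7 fell by 2.69 to 3.06 on the log2 scale. They were Spn, the leukocyte sialoglycoprotein CD43, Arfgef3, the transcription factor Nfe2, the calcium-binding protein S100a6, the lipid-sensing receptor Gpr132, the acyl-CoA thioesterase Acot1 and Atp2a3, a calcium pump of the endoplasmic reticulum. S100a6 was the most abundant of them, at 17.3, 21.1 and 14.6 CPM in 1C, against 124, 133 and 98.6 CPM in 1A (log2 fold change −2.75 ± 0.25 SE, adjusted p = 9.09e-06).

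**Figure D2:**
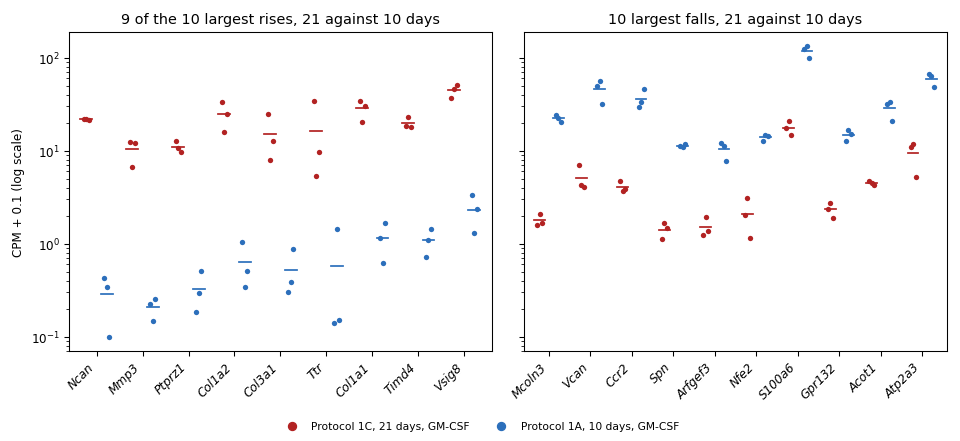
CPM plus 0.1 on a log axis for 9 of the 10 largest rises (left panel) and the 10 largest falls (right panel), 1 dot per library and a bar at the group mean, with Protocol 1C left of 1A for each gene. The groups are separate in every gene by the choice of genes, and the 1A dots of Ncan, Mmp3 and Ttr lie near the lower limit while the 1C dots of Ttr are spread.

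Among the most abundant genes that passed, Apoe, the lipid carrier apolipoprotein E, changed most. It was at 18046, 18552 and 25603 CPM in 1C, against 6676, 5837 and 6501 CPM in 1A (log2 fold change 1.71 ± 0.13 SE, adjusted p = 2.2e-08), which is 3.27-fold, and groups did not overlap. Lpl, the lipoprotein lipase, rose by 1.17, the protease gene Mmp12 by 0.88, the actin-binding peptide Tmsb4x by 0.64, the lysosomal protease Ctsb by 0.62 and the secreted phosphoprotein Spp1 (osteopontin) by 0.60 on the log2 scale. Vim, the intermediate filament vimentin, averaged 1723 ± 334 CPM in 1C and 3480.0 ± 119.7 CPM in 1A (SD, n = 3 each) and fell by 1.01 on the log2 scale. The ferritin heavy chain Fth1 fell by 0.41 and the galectin Lgals3 by 0.47.

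Cholesterol synthesis fell nearly as a whole. Of the 24 genes of the pathway and its regulators that were tested, 22 were lower in 1C (7.91% of all genes were), with a median log2 fold change of −0.83, and in 23 of the 24 the groups did not overlap. The pathway turns acetyl-CoA into mevalonate, squalene and then sterols, and its genes are under the control of the transcription factor SREBP-2, encoded by Srebf2. Mvk, mevalonate kinase, was at 22.2, 22.4 and 20.9 CPM in 1C, against 45.5, 46.4 and 47.7 CPM in 1A (log2 fold change −1.09 ± 0.10 SE, adjusted p = 1.6e-07). Pmvk, the next kinase of the pathway, was at 13.4, 16.9 and 16.2 CPM in 1C, against 40.4, 49.4 and 38.7 CPM in 1A (log2 fold change −1.46 ± 0.13 SE, adjusted p = 2.53e-07). Nsdhl, a sterol dehydrogenase of the late steps, was at 26.1, 21.1 and 20.9 CPM in 1C, against 53.6, 53.4 and 54.7 CPM in 1A (log2 fold change −1.25 ± 0.11 SE, adjusted p = 1.36e-07). In each of these 3 genes the highest 1C library was below the lowest 1A library by a wide margin.

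The early enzyme Hmgcs1 was at 191, 151 and 125 CPM in 1C, against 288, 279 and 263 CPM in 1A (log2 fold change −0.83 ± 0.15 SE, adjusted p = 0.00115). Mvd and Fdps, later enzymes of the isoprenoid steps, fell by 1.48 and 1.46, although a small nuclear RNA gene lies within Fdps. Lss, lanosterol synthase, fell by 1.24. The members lower by the least included the regulator Srebf2, which fell by 0.29 (adjusted p = 0.0135). Scap, which escorts SREBP, had a log2 fold change of 0.08 and did not pass (adjusted p = 0.528). Hmgcs1, Mvd, Fdps, Lss, Srebf2 and Scap lie outside the rule for named genes and were picked once their values were known.

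To show what the members share in sequence, the 250 bases upstream of the RefSeq start of each gene (build GRCm38.p6) were searched on both strands for TCACNCCAC, a core of the sterol regulatory element, and for CCAAT, the box bound by the factor NF-Y. A RefSeq promoter was found for 16 of the 22 lower members, and for 11501 of the 17028 gene symbols tested. CCAAT, or ATTGG on the other strand, was present in 15 of the 16 (93.8%), against 36% of all promoters of tested genes, and the sterol core was present in 1 of 16 (6.25%), Hmgcs1, against 0.974% of all. The windows of Hmgcs1 (chr13:119690101-119690350, plus strand), Nsdhl (chrX:72918271-72918520, plus strand), Mvk (chr5:114444019-114444268, plus strand) and Pmvk (chr3:89454291-89454540, plus strand) are shown 5′ to 3′ along the gene's strand, because they belong to the members described above and to the only one with the sterol core. Capitals mark the matches to either motif on either strand, and a match is a run of letters, not a shown binding site.
Hmgcs1: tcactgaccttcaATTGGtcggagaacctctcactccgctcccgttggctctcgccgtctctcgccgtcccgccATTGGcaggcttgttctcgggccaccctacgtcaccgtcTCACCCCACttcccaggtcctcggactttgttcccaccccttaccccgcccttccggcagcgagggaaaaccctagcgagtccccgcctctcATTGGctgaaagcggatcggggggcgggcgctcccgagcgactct
Nsdhl: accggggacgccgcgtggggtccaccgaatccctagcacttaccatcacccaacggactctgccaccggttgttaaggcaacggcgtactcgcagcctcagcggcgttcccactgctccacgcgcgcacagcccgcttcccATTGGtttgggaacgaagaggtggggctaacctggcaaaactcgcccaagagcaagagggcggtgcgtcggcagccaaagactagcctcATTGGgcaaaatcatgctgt
Mvk: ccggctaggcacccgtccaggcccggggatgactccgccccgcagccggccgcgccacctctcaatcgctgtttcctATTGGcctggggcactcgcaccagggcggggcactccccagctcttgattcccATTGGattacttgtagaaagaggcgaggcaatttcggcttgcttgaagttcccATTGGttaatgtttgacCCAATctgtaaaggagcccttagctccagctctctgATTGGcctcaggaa
Pmvk: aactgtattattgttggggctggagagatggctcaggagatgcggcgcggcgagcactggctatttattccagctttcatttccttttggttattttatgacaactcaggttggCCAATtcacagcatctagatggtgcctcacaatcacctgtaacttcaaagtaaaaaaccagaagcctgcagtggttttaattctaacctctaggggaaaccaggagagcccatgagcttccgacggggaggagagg

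Beside the sterol pathway, other lipid genes moved in both directions. Of 27 tested genes of lipid handling and of the oxysterol receptor LXR, 9 rose and 9 fell, and the median log2 fold change was −0.01. Fads2, a fatty acid desaturase, was at 7.59, 6.89 and 5.22 CPM in 1C, against 40.1, 45.5 and 39.3 CPM in 1A (log2 fold change −2.67 ± 0.19 SE, adjusted p = 2.74e-08). Scd2, a stearoyl-CoA desaturase, was at 178, 172 and 123 CPM in 1C, against 460.3, 467 and 415 CPM in 1A (log2 fold change −1.50 ± 0.18 SE, adjusted p = 8.2e-05). The groups of both were far apart. Elovl6, an elongase, fell by 1.66 and Acly, which supplies cytosolic acetyl-CoA, by 0.61. In the other direction, Abca1, the pump that loads cholesterol onto apolipoproteins, was at 239, 183 and 237 CPM in 1C, against 32.4, 32.1 and 32.5 CPM in 1A (log2 fold change 2.76 ± 0.12 SE, adjusted p = 2.58e-11). The 1A libraries of Abca1 were almost equal, and the lowest 1C library was far above them. The lipid droplet coat protein Plin2, the most abundant member that did not pass, was at 1757, 1739 and 1839 CPM in 1C and 1905, 1935 and 1915 CPM in 1A.

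Genes of mitosis fell next. Of 54 tested, 40 were lower and the other 14 did not pass, the median log2 fold change was −0.88, and in 45 of the 54 the groups did not overlap. Cdc20, which activates the anaphase-promoting complex, was at 2.99, 3.53 and 3.68 CPM in 1C, against 13.5, 13.6 and 8.82 CPM in 1A (log2 fold change −1.81 ± 0.21 SE, adjusted p = 3.43e-06). Ube2c, the ubiquitin-conjugating enzyme of that complex, was at 6.09, 7.37 and 4.77 CPM in 1C, against 18, 17 and 15.3 CPM in 1A (log2 fold change −1.46 ± 0.17 SE, adjusted p = 5.36e-06). Ccnb1, the mitotic cyclin B1, was at 7.53, 8.81 and 6.86 CPM in 1C, against 21.2, 20.8 and 17.4 CPM in 1A (log2 fold change −1.35 ± 0.16 SE, adjusted p = 4.06e-06). The groups of these 3 genes did not overlap, and none of the 54 members had a positive log2 fold change. Incenp, a subunit of the chromosomal passenger complex and the most abundant member that did not pass, was at 42.2, 63.4 and 59.8 CPM in 1C and 63.7, 67.3 and 57.7 CPM in 1A. Mki67, the proliferation marker Ki-67, fell by 0.95 and Ccnb2, the second B-type cyclin, by 1.47, while Cdk1, their partner kinase, had a log2 fold change of −0.16 (adjusted p = 0.266). These 3 were chosen after their values were seen.

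The list of DNA replication moved less. Of 50 members 13 fell (26%, against 7.91% of all genes tested), the other 37 did not pass, and the median log2 fold change was −0.20. E2f2, a transcription factor of the G1 to S transition, was at 8.66, 10.6 and 5.99 CPM in 1C, against 45.1, 48.8 and 38.6 CPM in 1A (log2 fold change −2.39 ± 0.24 SE, adjusted p = 6.19e-06), with no overlap. Mcm10, a replication initiator, fell by 0.78. Pcna, the sliding clamp of the replication fork, was at 314, 347 and 369 CPM in 1C and 267, 312 and 305 CPM in 1A and did not pass (adjusted p = 0.0526). Among 27 cell cycle inhibitors, p53 targets and senescence genes, 8 rose and 8 fell, with a median of −0.02. D-type cyclins moved in opposite directions. Ccnd2 was at 12.2, 10.9 and 11.2 CPM in 1C, against 3.11, 2.44 and 4.36 CPM in 1A (log2 fold change 1.79 ± 0.24 SE, adjusted p = 4.92e-05). Ccnd3 was at 19.1, 24.1 and 22 CPM in 1C, against 57.4, 60.7 and 58 CPM in 1A (log2 fold change −1.43 ± 0.10 SE, adjusted p = 4.84e-09). The inhibitor Cdkn1c fell by 1.48, and Cdkn1a, the p53 target p21, did not pass (adjusted p = 0.742). Another inhibitor gene, Cdkn2a, had 193, 377 and 315 counts in 1C and 140, 121 and 144 in 1A. It was chosen after its values were seen.

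The same windows of the mitosis genes were searched for TTTGAA, the cell cycle homology region (CHR), on both strands, and for CCAAT. Of the 40 lower members 33 had a RefSeq promoter. The CHR letters were present in 11 of the 33 (33.3%), against 10.9% of all promoters, and CCAAT in 23 of the 33 (69.7%), against 36%. Among all 44 tested members with a promoter, whether or not they fell, the shares were 36.4% and 70.5%. Cdc20 (chr4:118437344-118437593, minus strand), Ube2c (chr2:164769679-164769928, plus strand) and Ccnb2 (chr9:70421555-70421804, minus strand) are shown as the 3 with the smallest adjusted p among the 9 lower members whose promoter holds both motifs. In Ube2c 1 stretch of capitals is a pair of overlapping matches, 1 on each strand.
Cdc20: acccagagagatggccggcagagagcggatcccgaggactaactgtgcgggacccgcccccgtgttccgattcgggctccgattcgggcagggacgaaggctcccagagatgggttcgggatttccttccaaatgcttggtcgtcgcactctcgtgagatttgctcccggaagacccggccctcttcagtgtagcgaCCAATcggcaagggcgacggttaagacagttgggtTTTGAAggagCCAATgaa
Ube2c: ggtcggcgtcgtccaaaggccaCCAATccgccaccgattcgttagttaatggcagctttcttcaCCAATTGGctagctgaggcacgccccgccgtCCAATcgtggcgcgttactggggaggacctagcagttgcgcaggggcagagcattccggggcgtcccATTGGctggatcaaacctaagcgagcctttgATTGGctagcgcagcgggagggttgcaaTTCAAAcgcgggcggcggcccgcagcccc
Ccnb2: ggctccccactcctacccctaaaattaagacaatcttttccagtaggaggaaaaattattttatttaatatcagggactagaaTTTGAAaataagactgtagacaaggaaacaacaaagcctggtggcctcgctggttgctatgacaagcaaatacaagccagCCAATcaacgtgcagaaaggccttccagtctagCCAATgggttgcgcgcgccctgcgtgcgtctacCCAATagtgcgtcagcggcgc

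**Figure D3:**
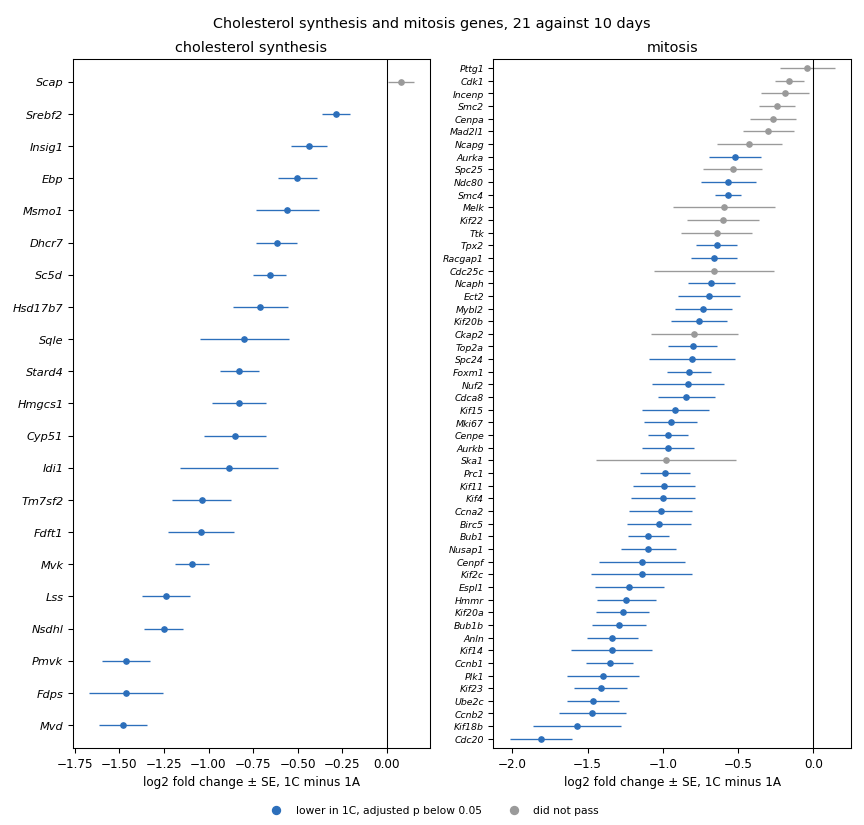
Log2 fold change, 1C minus 1A, with bars of 1 SE for 21 of the 24 tested members of the cholesterol synthesis list (left) and the 54 of the mitosis list (right), ordered by fold change, with blue for genes lower at adjusted p below 0.05 and grey for those that did not pass. The lowest points are Mvd at −1.48 in the left panel and Cdc20 at −1.81 in the right, and Scap is the only point above 0.

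Genes of microglial identity moved unevenly. Of 39 tested homeostatic genes 18 rose (13.1% of all genes did) and 5 fell, with a median log2 fold change of 0.35. Slco2b1, an organic anion transporter of microglia, was at 51.4, 49.4 and 46.3 CPM in 1C, against 9.94, 8.48 and 7.54 CPM in 1A (log2 fold change 2.49 ± 0.20 SE, adjusted p = 1.66e-06), although genes on the other strand overlap it. Adgrg1, the adhesion receptor GPR56, was low, at 1.55, 2.66 and 2.04 CPM in 1C and 0.123, 0.0479 and 0.0513 CPM in 1A, and rose (log2 fold change 4.68 ± 0.41 SE, adjusted p = 2.25e-07). Groups of these genes did not overlap. The ribonuclease Rnase4, the tetraspanin Cd81 and the leukotriene enzyme Ltc4s fell by 0.53, 0.67 and 1.34. The sentinel genes P2ry12, an ADP receptor, and Cx3cr1, the fractalkine receptor, had log2 fold changes of 0.18 and −0.61 and did not pass (adjusted p = 0.67 and 0.123, chosen after their values were seen).

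Complement genes rose: 12 of 19 tested were higher (63.2%, against 13.1% of all genes), the other 7 did not pass, and the median log2 fold change was 0.58. The 3 chains of C1q, the molecule that starts the classical pathway and tags synapses for removal, rose together. C1qa was at 816, 817 and 1234 CPM in 1C, against 205, 235 and 281 CPM in 1A (log2 fold change 1.99 ± 0.14 SE, adjusted p = 7.36e-08). C1qb rose by 1.64 (adjusted p = 2.02e-09) and C1qc by 1.83 (adjusted p = 2.64e-08). Every 1C library was above every 1A library in all 3 chains. Itgb2, the shared chain of the complement receptors, was at 1292, 1129 and 1052 CPM in 1C and 1195, 1129 and 1225 CPM in 1A and did not pass.

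Of 34 genes of the disease-associated microglia signature, 12 rose and 1 fell, with a median of 0.18. Lgals3, a galectin, was the fall, and the largest log2 fold changes among the rises were those of the chemokine Ccl6, Apoe and Itgax. Itgax, the integrin CD11c, was at 188, 152 and 140.0 CPM in 1C, against 71, 53.7 and 58.4 CPM in 1A (log2 fold change 1.39 ± 0.13 SE, adjusted p = 8.22e-07). Lysozyme, Lyz2, was at 22195, 20575 and 18770.5 CPM in 1C and 18274, 16917 and 18681 CPM in 1A and did not pass. Of 43 lysosome genes 15 rose and 3 fell (median 0.13). Ctsl, cathepsin L, was at 1207, 1128 and 1358 CPM in 1C, against 541, 545 and 502 CPM in 1A (log2 fold change 1.22 ± 0.10 SE, adjusted p = 5.69e-08). Mitf, a regulator of lysosomal genes, rose by 0.68 and the acid lipase Lipa by 0.60, while Ctsk, cathepsin K, fell by 0.89 and the glycosidase Gusb by 0.28. Among 22 genes that mark developmental stages of microglia, 11 rose and 1, Scd2, fell. The largest of these rises was that of Apoe, and the serine synthesis gene Psat1 rose by 0.55.

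Receptors for Fc and for dying cells changed in both directions, 18 higher (46.2%) and 6 lower (15.4%) of 39, against 13.1% and 7.91% of all genes tested. Their median was 0.38 (0.34 with the 1 gene without a 1A count set at its bound). Cd36, a scavenger receptor for oxidised lipid, was at 3565, 2771 and 2768 CPM in 1C, against 1533, 1173 and 1165 CPM in 1A (log2 fold change 1.23 ± 0.12 SE, adjusted p = 9.53e-07). Stab2, a scavenger receptor for hyaluronan, was at 9.56, 6.5 and 11.9 CPM in 1C, against 1.39, 0.623 and 1.33 CPM in 1A (log2 fold change 3.05 ± 0.33 SE, adjusted p = 2.07e-06). Scarb1, the receptor for high-density lipoprotein, went the other way, at 59.1, 64.7 and 56.9 CPM in 1C, against 160.3, 166 and 164 CPM in 1A (log2 fold change −1.44 ± 0.08 SE, adjusted p = 1.33e-10). The groups did not overlap in any of the 3. The inhibitory receptors Cd300lf and Havcr2 (TIM-3) fell by 0.97 and 0.93, and the common signalling chain of Fc receptors, Fcer1g, did not pass (adjusted p = 0.822). The mannose receptor Mrc1, counted among the lectins and border macrophage markers, rose by 0.61.

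**Figure D4:**
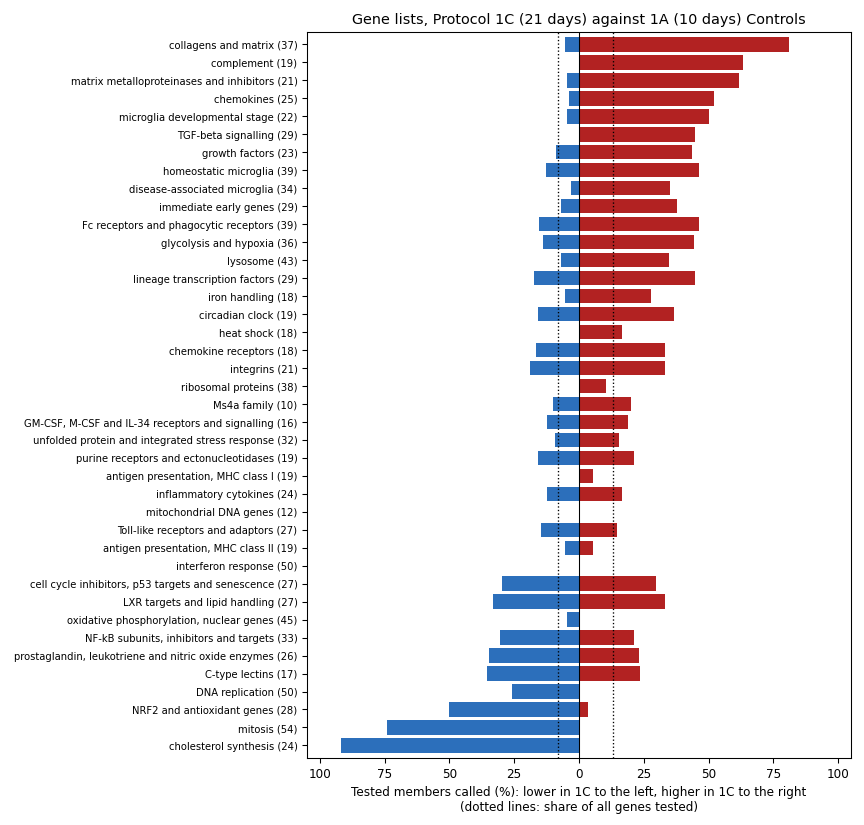
Share of tested members, in percent, that were lower in 1C (bars to the left) or higher in 1C (bars to the right) for the gene lists, with the number tested in brackets and dotted lines at 7.91% and 13.1%, the shares of all genes tested. Cholesterol synthesis (91.7% lower) and mitosis (74.1% lower) lie at one end, and collagens and matrix (81.1% higher), complement (63.2% higher) and the metalloproteinases (61.9% higher) at the other.

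Secreted factors rose more often than they fell. Of 25 chemokines tested 13 rose (52%) and 1 fell (4%), against 13.1% and 7.91% of all genes tested, with a median log2 fold change of 0.80. Ccl6, a myeloid chemokine of the mouse (ENSMUSG00000018927), had the smallest p value of all genes. It was at 868, 872 and 944 CPM in 1C, against 239, 239 and 232 CPM in 1A (log2 fold change 1.92 ± 0.07 SE, adjusted p = 3.32e-12) without overlap. A gene on the other strand overlaps it. Ccl9, its neighbour in the same chemokine family, was at 1267, 1127 and 1215 CPM in 1C, against 529, 615 and 592 CPM in 1A (log2 fold change 1.06 ± 0.09 SE, adjusted p = 7.36e-08). Cxcl14 was at 66.8, 82.5 and 85.4 CPM in 1C, against 21.3, 18 and 19.6 CPM in 1A (log2 fold change 2.00 ± 0.17 SE, adjusted p = 4.37e-07). All 3 genes were separate between the ages. Cxcl13, a chemokine for B cells chosen after its values were seen, had no count in 1A and was at 2.57, 0.654 and 3.41 CPM in 1C, at least 47.7-fold higher on the floor of 3 counts. Ccl22 was the only chemokine that fell, by 0.55, and Ccl4, an abundant inflammatory chemokine, did not pass (adjusted p = 0.0888).

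Matrix metalloproteinases and their inhibitors showed the same direction, 13 higher (61.9%) and 1 lower (4.76%) of 21, with a median of 1.01. Of all genes tested 13.1% were higher and 7.91% lower. Mmp9, the gelatinase that cleaves basement membrane, was at 337, 335 and 392 CPM in 1C, against 28.4, 27.2 and 28.4 CPM in 1A (log2 fold change 3.66 ± 0.18 SE, adjusted p = 1.02e-08), a 12.7-fold difference with tight groups. Plau, the urokinase that activates plasminogen, was at 1479, 1332 and 1479 CPM in 1C, against 535, 615 and 683 CPM in 1A (log2 fold change 1.23 ± 0.12 SE, adjusted p = 6.91e-07). Mmp27 rose by 3.14 from a low level. Mmp8, the neutrophil collagenase, was the member that fell, at 26.5, 16.4 and 12 CPM in 1C, against 62, 41.7 and 54.1 CPM in 1A (log2 fold change −1.53 ± 0.27 SE, adjusted p = 0.00154). Timp2, an inhibitor of these proteases, did not pass (adjusted p = 0.135). Of the 37 collagen and matrix genes 30 rose and 2 fell, with a median of 3.93 (3.91 with the 1 gene without a 1A count at its bound), and their summed level was 1067 to 1298 CPM in 1C and 673 to 992 CPM in 1A. Fbn1, the microfibril protein fibrillin, was at 6.51, 3.01 and 4.0 CPM in 1C, against 0.246, 0.144 and 0.103 CPM in 1A (log2 fold change 4.67 ± 0.51 SE, adjusted p = 2.65e-06). Igfbp4, which binds insulin-like growth factors, rose by 0.93 at 61.7 CPM or more in every library. The fibroblast marker list itself holds collagens (Col1a1, Col1a2 and Col3a1), so the rises of the collagen and fibroblast lists are not separate results. Most oligodendrocyte markers given above also rose. Of 12 astrocyte markers 7 rose, but their summed level was lower in 1C. The part of these cell types in the counts was not tested.

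Growth factors rose in 10 of 23 (43.5%) and fell in 2 (8.7%), against 13.1% and 7.91% of all genes tested. Their median was 0.67 (0.53 with 4 genes without a 1A count at their bound). Vegfa, the main growth factor of blood vessels, was at 63, 80.3 and 72.2 CPM in 1C, against 8.64, 6.18 and 5.84 CPM in 1A (log2 fold change 3.37 ± 0.14 SE, adjusted p = 1.03e-11), a 10.4-fold difference. Pdgfb, a mitogen of pericytes and glial precursors, was at 116, 154 and 130.4 CPM in 1C, against 42.8, 54.4 and 51.3 CPM in 1A (log2 fold change 1.43 ± 0.11 SE, adjusted p = 4.42e-08). Bmp2, a bone morphogenetic protein, rose by 2.58, and Gdf15, a stress-induced member of the same superfamily, fell by 1.63. Every 1C library was above every 1A library for Vegfa, Pdgfb and Bmp2 and below it for Gdf15. The microglial growth factor Igf1, the most abundant member that did not pass, was at 792, 725 and 783 CPM in 1C and 711, 706 and 801 CPM in 1A.

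TGF-beta keeps microglia in their resident state in the brain. Of 29 genes of its signalling 13 rose (44.8%, against 13.1% of all genes tested) and the other 16 did not pass. The median was 0.31, but the count of rises was 8 without 1A replicate 2. Lrrc32, which holds latent TGF-beta on the cell surface, was at 33, 26.7 and 24.4 CPM in 1C, against 3.72, 2.54 and 2.97 CPM in 1A (log2 fold change 3.17 ± 0.22 SE, adjusted p = 3.55e-07). Ltbp3, a latent TGF-beta binding protein, was at 57.9, 57.1 and 71.6 CPM in 1C, against 17.2, 14.6 and 18.9 CPM in 1A (log2 fold change 1.88 ± 0.19 SE, adjusted p = 3.66e-06). The groups of both were far apart, and the ligand gene Tgfb1 itself did not pass, at 393, 453 and 426 CPM in 1C and 416, 407 and 412 CPM in 1A (adjusted p = 0.744). The target gene Id2, an inhibitor of helix-loop-helix factors, rose by 0.81. Of 29 transcription factors of the myeloid lineage 13 rose and 5 fell (median 0.29), with Etv5 higher by 1.11 and Klf4 lower by 1.62, and Spi1, which encodes the master regulator PU.1, did not pass (log2 fold change 0.0019).

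Cytokine transcripts that the study measured differed in sign. Tnf was at 32.7, 37.9 and 36.6 CPM in 1C, against 21.2, 25 and 30.4 CPM in 1A (log2 fold change 0.49 ± 0.16 SE, adjusted p = 0.0464), a narrow pass without overlap. Il1b was at 2.69, 2.31 and 2.82 CPM in 1C, against 12.4, 10.3 and 7.12 CPM in 1A (log2 fold change −1.94 ± 0.26 SE, adjusted p = 0.000162), so every 1C library was below every 1A library. Ifnb1 was barely detected, at 0.119, 0 and 0.0454 CPM in 1C and 0, 0 and 0.154 CPM in 1A, and no difference was detectable at this depth. Of 24 inflammatory cytokines 4 rose (16.7%) and 3 fell (12.5%), against 13.1% and 7.91% of all genes tested. Their median was 0.20 (0.11 with 2 genes without a 1A count at their bound). Il1a, which shares its receptor with IL-1β, was at 14.2, 12.8 and 14.5 CPM in 1C, against 5.89, 5.7 and 6.41 CPM in 1A (log2 fold change 1.21 ± 0.14 SE, adjusted p = 5.13e-06). Csf1, encoding M-CSF, rose by 0.93, and Il18 and Il16 fell by 0.86 and 0.68.

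The receptors for the growth factor in the medium were also measured. Csf2ra, the alpha chain of the GM-CSF receptor, was at 285, 373 and 319 CPM in 1C, against 444, 431 and 448 CPM in 1A (log2 fold change −0.44 ± 0.09 SE, adjusted p = 0.00214). The beta chain Csf2rb did not pass (log2 fold change −0.20, adjusted p = 0.133), and its mouse paralog Csf2rb2, whose near-identical sequence can share reads with it, rose by 0.32 (adjusted p = 0.0285). Socs2, a feedback inhibitor of cytokine signalling, was at 4.48, 4.01 and 4.77 CPM in 1C, against 1.51, 1.25 and 0.974 CPM in 1A (log2 fold change 1.81 ± 0.22 SE, adjusted p = 8.26e-06), and Stat5a, the transcription factor downstream of GM-CSF, fell by 0.30. In the whole list of these receptors and their signalling 3 of 16 rose (18.8%) and 2 fell (12.5%), against 13.1% and 7.91% of all genes tested.

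Of 33 genes of NF-κB signalling 7 were higher (21.2%) and 10 lower (30.3%), against 13.1% and 7.91% of all genes tested. Their median was −0.04, and the count of falls was 6 without 1A replicate 2 or without 1A replicate 3. Tnfaip3, the inhibitor A20, rose by 1.03 (adjusted p = 4.86e-08) and the nuclear inhibitor Nfkbid by 0.70. Traf1, an adaptor of TNF receptors, fell by 1.71 and Birc3 by 0.54. Vcam1, an adhesion target, was low and rose by 2.08. Immediate early genes rose in 11 of 29 and fell in 2 (median 0.15). The phosphatases Dusp6 and Dusp1, which switch off MAP kinases, rose by 1.02 and 0.91 and Atf3, a stress-induced factor, by 0.76, while Klf2, a quiescence factor, was at 4.78, 7.85 and 7.27 CPM in 1C, against 17.1, 17.4 and 20 CPM in 1A (log2 fold change −1.44 ± 0.14 SE, adjusted p = 9.26e-07).

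The interferon response gave no call between 21 and 10 days. Of 50 tested members none passed edgeR's test, 1 had an unadjusted p below 0.05, and DESeq2 called 1 higher, with groups apart in 1 and a median log2 fold change of 0.14. Lgals3bp, the most abundant member, was at 1141, 773 and 1485 CPM in 1C and 635, 835 and 1281 CPM in 1A. The groups overlapped, with replicate 3 highest in both. Of 19 tested genes of antigen presentation by MHC class II, 1 rose, the maturation marker Cd83, by 0.92, and 1 fell, H2-DMa, which helps to load peptides, by 0.39. The other 17 did not pass, and at an unadjusted p below 0.05 there were 2 higher and 4 lower. The groups of 6 of the 19 did not overlap, which is not above the 34.7% of all genes tested. Of 19 MHC class I genes H2-Q7 alone passed, with overlapping groups (log2 fold change 1.56 ± 0.42 SE, adjusted p = 0.0234), and reads of these near-identical genes may be split between them. B2m, the shared light chain, was at 2833, 2138 and 3096 CPM in 1C and 1982, 2205 and 2939 CPM in 1A.

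Among 27 Toll-like receptors and adaptors 4 rose and 4 fell (14.8% each, against 13.1% and 7.91% of all genes tested). Tlr1, which pairs with TLR2 on lipoproteins, was at 65.4, 56.4 and 73.2 CPM in 1C, against 18.1, 21.2 and 20.9 CPM in 1A (log2 fold change 1.70 ± 0.12 SE, adjusted p = 6.5e-09), and its partner Tlr2 fell by 0.41. The Hmgb1 gene itself rose by 0.26 (adjusted p = 0.0118). Of 18 chemokine receptors 6 rose and 3 fell: Ccr3 rose by 2.99, Ccr2 and the formyl peptide receptor Fpr2 fell, the second by 1.12, and Ccr7, a receptor for homing to lymph nodes, fell to 1 count over the 1C libraries, against 0.123, 2.06 and 3.28 CPM in 1A. C-type lectins rose in 4 of 17 and fell in 6. Clec4n, encoding Dectin-2 for fungal sugars, was at 160.2, 140.1 and 67.8 CPM in 1C, against 406, 357 and 332 CPM in 1A (log2 fold change −1.57 ± 0.27 SE, adjusted p = 0.00162), and Clec12a, an inhibitory receptor, rose by 0.85. Of 21 integrins 7 rose and 4 fell, with Itga9 higher by 2.15 and Itgal, the alpha chain of LFA-1, lower by 0.88.

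Antioxidant genes fell more often than they rose, 14 lower and 1 higher of 28 with a median of −0.33, though 9 fell without 1C replicate 2 or without 1A replicate 1. Many of them are targets of the factor NRF2. Gstm1, a glutathione transferase, was at 146, 149.6 and 104 CPM in 1C, against 383, 305 and 351 CPM in 1A (log2 fold change −1.38 ± 0.13 SE, adjusted p = 1.25e-06). Me1 and G6pdx, which make NADPH, fell by 1.33 and 0.73, and Mt1, a metallothionein, was the rise, by 0.55. The core of the antioxidant response element, TGACNNNGC, was present on either strand in 4 of 13 promoters of lower members (30.8%), against 11.9% of all promoters. Among the 24 tested members with a promoter, whether or not they fell, 6 held it (25%).

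Of 26 genes of prostaglandin, leukotriene and nitric oxide synthesis, 6 rose and 9 fell. Alox5ap, which feeds 5-lipoxygenase, was at 48.6, 54.5 and 39.6 CPM in 1C, against 125, 131 and 121 CPM in 1A (log2 fold change −1.40 ± 0.09 SE, adjusted p = 3.63e-09), and Alox5, the lipoxygenase of leukotriene synthesis, was at 7.89, 8.24 and 3.59 CPM in 1C, against 24.6, 22.9 and 19.9 CPM in 1A (log2 fold change −1.78 ± 0.24 SE, adjusted p = 2.88e-05). On the prostanoid side Ptgs1, cyclooxygenase 1, was at 50.1, 49.5 and 57.9 CPM in 1C, against 13.8, 15.4 and 18.6 CPM in 1A (log2 fold change 1.72 ± 0.11 SE, adjusted p = 1.63e-09), and Tbxas1, thromboxane synthase, rose by 1.39 (adjusted p = 1.32e-09). The 1C and 1A groups of these 4 genes did not overlap. Other members went against them or did not pass. Ptges, a prostaglandin E synthase, was at 8.84, 7.11 and 4.59 CPM in 1C, against 12, 14.5 and 17.5 CPM in 1A (log2 fold change −1.11 ± 0.33 SE, adjusted p = 0.0318), and Ptgs2, cyclooxygenase 2, and Lta4h, a leukotriene hydrolase, had log2 fold changes of −0.01 and −0.03 and did not pass, all 3 chosen after their values were seen.

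Genes of glycolysis and hypoxia rose in 16 of 36 and fell in 5 (median 0.19). The glucose transporter Slc2a1 rose by 0.84 and P4ha1, a collagen prolyl hydroxylase, by 0.89, while hexokinase Hk1 was at 50.7, 50.7 and 48.8 CPM in 1C, against 87.7, 96.6 and 93.8 CPM in 1A (log2 fold change −0.89 ± 0.09 SE, adjusted p = 1.02e-06), and Slc16a3, the lactate exporter, fell by 0.78. Pkm, pyruvate kinase, did not pass. Of 45 nuclear genes of oxidative phosphorylation Atp5o and Uqcrq fell and the other 43 did not pass (median −0.08), and of 12 genes of mitochondrial DNA none passed edgeR's test, with 1 at an unadjusted p below 0.05 and 1 lower by DESeq2. Iron genes rose in 5 of 18 and fell in 1: Cp, the ferroxidase ceruloplasmin, was at 56.4, 34.7 and 81 CPM in 1C, against 5.93, 8.24 and 7.64 CPM in 1A (log2 fold change 2.98 ± 0.28 SE, adjusted p = 1.4e-05), and the iron importer Slc11a2 rose by 0.88. Of 32 genes of the unfolded protein and stress responses 5 rose (15.6%) and 3 fell (9.38%), with Phgdh of serine synthesis lower by 1.61. Clock genes rose in 7 of 19 and fell in 3. Nr1d2, a repressor of the clock, rose by 1.02 and Cry2, another of its repressors, fell by 0.63. Of 38 ribosomal protein genes 4 rose (10.5%) and the other 34 did not pass. Of 19 purine receptors and ectonucleotidases 4 rose (21.1%) and 3 fell (15.8%), and of 18 heat shock genes 3 rose (16.7%). Of 10 Ms4a genes 2 rose (20%) and 1 fell (10%). Of all genes tested 13.1% rose and 7.91% fell. The shares of ribosomal protein, heat shock and stress response genes that rose lie near that 13.1%.

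The same difference in culture time was then measured in the 1C and 1A libraries treated with HMGB1, none of which entered the Control comparison. The labels do not say whether a treated library and its same-numbered Control came from 1 litter, and the Y-linked gene Ddx3y had the same order over replicates in both, so the shared calls may be of cells from the same litters. There 3586 of 16953 genes were higher in 1C (21.2%) and 3272 lower (19.3%), 40.5% in all. Of the 2195 genes higher in the Controls and tested with HMGB1, 1401 were also higher (63.8%) and 93 were lower. Of the 1329 lower genes, 902 were also lower (67.9%) and 63 were higher. Taken from the other list, the shared genes were 40.3% of those higher and 27.7% of those lower with HMGB1. Cholesterol synthesis had 22 of 24 lower and 1 higher, mitosis 49 of 54 lower and 1 higher, and collagens and matrix 32 higher and 2 lower. The interferon list, which held no call in the Controls, had 44 of 50 higher with HMGB1. Cdc20, Nsdhl, Mmp9, Vegfa, C1qa, Ccl6 and Apoe had log2 fold changes of −1.84, −1.64, 3.27, 2.76, 2.15, 1.96 and 1.90 there.

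For Il1b the treated libraries were at 2219, 2110.4 and 1938 CPM in 1C and 1629, 1803 and 1480.0 CPM in 1A, a log2 fold change of 0.35 that did not pass (adjusted p = 0.0966). Tnf was at 4027, 4574 and 4549.5 CPM in 1C and 2601, 2674 and 2444 CPM in 1A with HMGB1, with a log2 fold change of 0.77 (adjusted p = 5.3e-05). Tested as an interaction, the difference of Il1b between the ages was 2.29 higher on the log2 scale with HMGB1 than in the Controls (adjusted p = 3.23e-05), and that of Tnf 0.28 higher (adjusted p = 0.455). Abca1 was at 130.1, 107 and 125 CPM in 1C, against 71.1, 65 and 78.8 CPM in 1A, and rose by 0.76 (adjusted p = 0.00223). Tested as an interaction in 1 fit of all 30 libraries, the 21 against 10 day difference depended on HMGB1 in 2544 of 18182 genes (14%), in either direction.

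**Figure D5:**
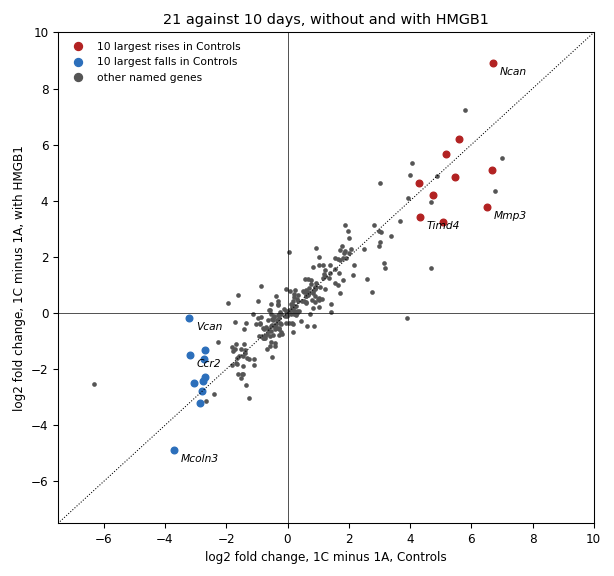
Log2 fold change, 1C minus 1A, in the Control libraries (horizontal axis) and in the HMGB1 libraries (vertical axis) for 255 named genes that have 1A Control counts, 1 dot per gene, with the 10 largest rises in red, the 10 largest falls in blue and a dotted line where both are equal. The sign is shared by 225 of the 255, and Vcan is the blue dot that lies at −0.17 on the vertical axis. Of the 258 named genes 206 passed in the Controls, and the share of equal signs over all genes tested was not measured.

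The 10-day cultures without GM-CSF (1B) place these levels, with the reminder that the 1B and 1C comparisons share the 1A libraries. Relative to 1A, 18.2% of genes were higher in 1B and 12.6% lower. Mmp9 was at 337, 335 and 392 CPM in 1C, 3.0, 4.42 and 4.5 CPM in 1B and 28.4, 27.2 and 28.4 CPM in 1A, so 1C was highest and 1B lowest. Ccl6 had the same order, with 106, 93 and 104 CPM in 1B. Arg1, arginase 1, chosen after its values were seen, was at 81.9, 55.3 and 82.7 CPM in 1C, 3.37, 1.3 and 1.96 CPM in 1B and 9.94, 7.33 and 5.07 CPM in 1A. Ccr2 took another order, at 4.6, 3.62 and 3.77 CPM in 1C, 0.526, 0.605 and 0.346 CPM in 1B and 29.6, 33.1 and 46 CPM in 1A, with 1A highest.

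For other genes 1C and 1B both lay on one side of 1A. Abca1 was at 151, 142 and 130.0 CPM in 1B, between the other groups and nearer to 1C. Slco2b1 was at 50.1, 35.4 and 35.5 CPM in 1B and Ncan at 3.52, 2.84 and 6.64 CPM. Relative to 1A, cholesterol synthesis had 22 of 24 lower in 1C and 13 lower in 1B, and collagens and matrix had 30 of 37 higher in 1C and 29 higher in 1B. The summed level of the neuronal markers was 5.5 to 7.67 CPM in 1C and 9.89 to 20.8 CPM in 1B. Of the 54 mitosis genes 40 were lower in 1C, while 8 were higher and 1 lower in 1B, where Ccnb1 was at 22.8, 24.2 and 28.3 CPM. The interferon list, without a call in 1C, had 46 of 50 lower in 1B.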

How the data were processed

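Per the labels and the methods, the authors used HISAT2 2.0.5 for alignment and featureCounts 1.5.0-p3 for gene counts, and the deposited table holds whole-number counts of 54532 genes in 30 libraries. A genome build is not given in the sources used here, and the gene positions equal those of GENCODE M21 (GRCm38) for 98.1% of the genes. The tests used edgeR 4.0.16 under R 4.3.3, with its filterByExpr for weakly counted genes and TMM scaling, as robust quasi-likelihood F tests on the 15 Control libraries in 5 groups for 1C minus 1A, on the 15 HMGB1 libraries for the same contrast, and on all 30 for the interaction, with Benjamini-Hochberg adjustment and a threshold of 0.05. Standard errors were taken from the F statistic. The code was tested on simulated data. DESeq2 1.42.0, other filters, fewer libraries, a log2 fold change limit of 1, a replicate block and fits without each library in turn were alternatives. Total counts ran from 16111171 to 21497681 in the 6 libraries compared.

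Genes were named by a rule: the 10 largest rises and falls among protein-coding genes that passed, with a higher group mean of 10 CPM or more and no overlap, the 10 most abundant genes that passed, from each of 51 lists up to 3 members that rose, up to 3 that fell and the most abundant that did not pass, the cytokines and surface markers that the study measured, the receptors for GM-CSF and M-CSF, and sex-linked genes. The members and lists were chosen with earlier results of these data known, and exceptions to the rule are named in the text. Some genes that the rule or the lists hold are left out of the text and figures. Promoter windows came from RefSeq (GRCm38.p6). No set test was run, and reads were not realigned.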

Additional observations from a re-analysis of the deposited data

Results flagged for a closer look

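For 4 of the 20 genes with the largest changes, the difference between 21 and 10 days itself differed between HMGB1 and Control libraries. The test was edgeR's quasi-likelihood test of the interaction over 30 libraries, given as the HMGB1 minus the Control log2 fold change. Of all genes tested for it, 2544 of 18182 (14%) passed. The 20 genes were picked by their Control fold changes, which the interaction subtracts. A smaller difference with HMGB1 can therefore follow from the choice of genes alone. Vcan differed most, by 3.04 ± 0.42 SE (adjusted p = 3.73e-05), with a log2 fold change, 1C minus 1A, of −0.17 with HMGB1 and −3.21 in the Controls. Ccr2 differed by 1.69 ± 0.33 SE (adjusted p = 0.00058), with −1.49 with HMGB1 and −3.19 in the Controls, and Gpr132 by 1.08 ± 0.26 SE (adjusted p = 0.00418), with −1.64 and −2.72. Mcoln3 went the other way, by −1.17 ± 0.39 SE (adjusted p = 0.039), with −4.88 with HMGB1 and −3.71 in the Controls. All 4 genes were lower in 1C in both settings, with Vcan not past the threshold with HMGB1.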

How the results depend on the processing

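Of 206 named genes that passed, 172 kept their call in each of the 15 alternatives that tested them, and none of the 258 named genes reversed. An alternative whose filter dropped a gene was not counted for that gene. Counts of genes higher and lower were 2243 and 1586 by DESeq2's Wald test, 1496 and 1325 with only the 6 libraries compared, and 2181 and 1344 with the replicate number as a block. The labels do not say that a number marks a shared litter, and correlations of same-numbered residuals were −0.002, 0.080 and 0.13, so the numbers were not treated as pairs, which does not show that litters were not shared. Leaving out 1 library gave 1637 to 2157 higher and 980 to 1224 lower, both lowest without 1A replicate 2. Rises made up 53% of the calls in the fit of the 6 libraries and 52.9% with the 9 neonatal Control libraries. A minimum absolute log2 fold change of 1 left 997 higher and 384 lower. At that limit the higher members were 6 homeostatic, 5 disease-associated, 2 lysosomal, 5 complement, 5 immediate early, 5 TGF-beta, 3 lineage factor, 3 glycolysis and hypoxia, 6 Fc and phagocytic receptor, 6 growth factor and 3 developmental stage genes, and the lower ones were 9 of cholesterol synthesis, 1 of DNA replication, 20 of mitosis, 1 of NF-κB and 6 antioxidant genes. Leaving out 1 library, NF-κB had 6 to 9 lower (6 without 1A replicate 2 or 3), TGF-beta 8 to 12 higher (8 without 1A replicate 2) and the antioxidant list 9 to 14 lower (9 without 1C replicate 2 or 1A replicate 1). With 3 libraries a group, genes under about 1 CPM rest on few counts, and p-values cover the spread between these libraries only.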

Other observations

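The sex-linked genes differed between replicates more than between ages. Ddx3y, on the Y chromosome, was at 31.1, 46.7 and 21.8 CPM in 1C and 27.4, 34.8 and 15 CPM in 1A, highest in replicate 2 and lowest in replicate 3 of both groups. Xist, which is transcribed from the inactive X chromosome, was at 450.1, 310.4 and 464 CPM in 1C and 397, 229.9 and 419.6 CPM in 1A, lowest in replicate 2 of both. In the 1B Controls the order was the same, at 27.9, 38.8 and 19.3 CPM for Ddx3y and 324, 239 and 499 CPM for Xist. With HMGB1, Ddx3y was at 29.5, 36.6 and 21.9 CPM in 1C and 28.4, 34.7 and 20.6 CPM in 1A. Of 5 sex-linked genes tested none passed edgeR's test between 1C and 1A Controls, none had an unadjusted p below 0.05, and DESeq2 called none. Replicate numbers were not used as pairs, because the labels do not say that they mark a shared litter.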
